A study of Homo sapiens with 12 samples.

Results

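The respiratory chain and ATP synthase of the inner mitochondrial membrane were followed here through the transcripts of 93 genes, chosen by symbol from the 57152 genes with values in the table. They comprise 80 nuclear genes (37 of complex I, 4 of complex II, 9 of complex III, 10 of complex IV and 20 of complex V) and the 13 protein-coding genes of the mitochondrial genome (7, 0, 1, 3 and 2 of the same complexes). Pseudogene copies were excluded, and NDUFA4, a subunit later assigned to complex IV, was counted by its symbol with complex I. In all, 92 members reached the mean of 1 TPM needed for testing. The remaining one, ATP5MGL, was listed at 0 in every library.

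RNA was sequenced from A549 cells, an established human lung adenocarcinoma line with alveolar epithelial features, and from LB cells, whose labels give A549 as their source. The 4 groups of 3 libraries were A549 cells with 0.1% DMSO, LB cells with 0.1% DMSO, LB cells with 10 µM amiodarone, and LB cells with 10 µM amiodarone plus 10 mg/ml hydroxypropyl-beta-cyclodextrin (HPbCD). HPbCD, a cyclic sugar that carries cholesterol, was present from seeding, 24 h before the drug, and amiodarone, a cationic amphiphilic antiarrhythmic drug, or vehicle was then given for 24 h. How LB cells were derived, and whether they are 1 clone, is not given in these sources. LB cells with HPbCD alone and amiodarone-treated A549 cells were not analysed here, so no comparison of HPbCD without the drug is given.

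The respiratory complexes pass electrons from NADH (complex I) and succinate (complex II) through coenzyme Q, complex III and cytochrome c to oxygen at complex IV. Protons pumped on the way drive ATP synthesis at complex V. Complex II is built wholly from nuclear genes, whereas the other complexes combine nuclear subunits with subunits made inside the organelle from a small circular genome that is transcribed as long polycistronic RNAs. In cells exposed to amiodarone, inhibition of respiration and drug accumulation in lysosomes and mitochondria are known effects of the compound.

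Values are in TPM, transcripts scaled to a common library total, a unit that divides by transcript length, so levels can be compared between genes. A gene was said to rise or fall where limma's moderated test on log2(TPM + 1), adjusted by Benjamini-Hochberg over 13968 genes, gave an adjusted p under 0.05. Differences below are therefore on the log2(TPM + 1) scale. Nothing in the labels says that the 3 libraries of a group came from separate cultures, so p-values reflect only the variation among these 3, which may be technical. TPM values carry no read depth, which is unknown here. Each library summed to between 999449 and 999632 TPM and listed 20966 to 22261 genes above 0. All 6 epithelial markers (KRT7, KRT8, KRT18, KRT19, EPCAM and CDH1) had a mean of at least 1 TPM in every group, with summed levels of 4160 to 10300 TPM, whereas summed endothelial markers did not exceed 0.88 TPM.

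The mitochondrially encoded genes were far more abundant than the nuclear subunits. The 13 genes together took 5.38% to 9.19% of all TPM, while the 80 nuclear genes together took 2.23% to 2.42%. By library, the mitochondrial sum was 91888, 80517 and 62685 TPM in A549 cells and 84024, 79311 and 67243 TPM in LB cells with DMSO. It was 56106, 84908 and 65424 TPM with amiodarone, and 53818, 67269 and 63120 TPM with amiodarone plus HPbCD. Every pair of groups overlapped, that of vehicle and combination in LB cells only at 67243 and 67269 TPM. In RNA from whole cultures, fewer mitochondria or cells and less RNA in each cannot be told apart. The nuclear sum was narrow in comparison, with group means of 22860 ± 775, 23800 ± 353, 23520 ± 697 and 23580 ± 286 TPM (SD, n = 3) in the same order. The median residual SD on the log2 scale was 0.258 for the 13 mitochondrial genes, 0.065 for the 79 tested nuclear members and 0.128 for all genes tested. A given nuclear change could thus be resolved at a smaller size than a mitochondrial one.

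**Figure D1:**
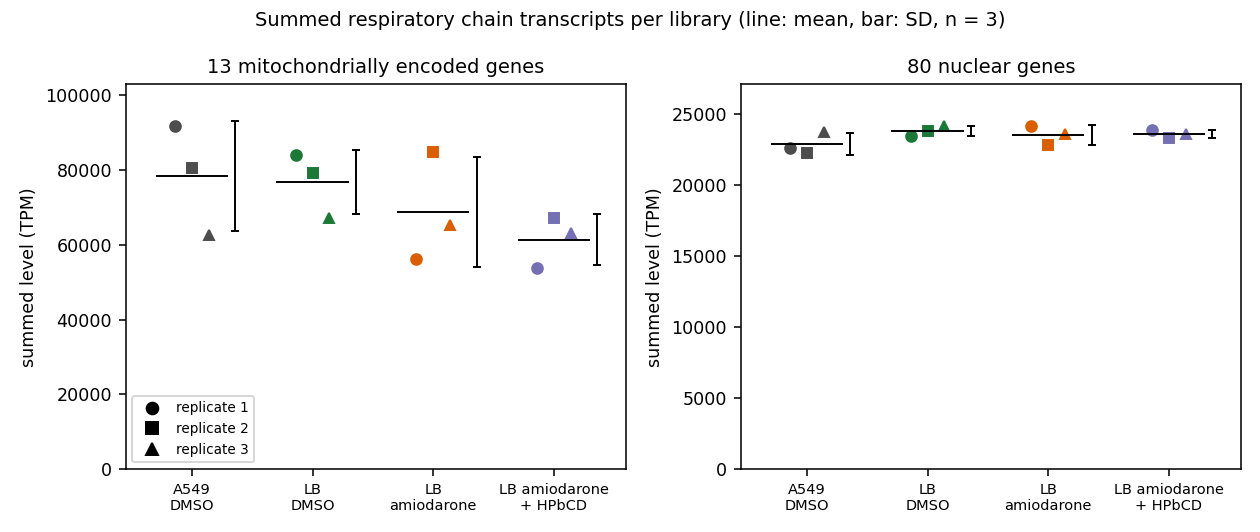
Summed TPM (vertical axes, from 0) of the 13 mitochondrially encoded genes (left) and the 80 nuclear genes (right) in each of the 12 libraries, with 3 replicates per group; horizontal lines are means and bars are SD. The mitochondrial sum runs from 53818 to 91888 TPM with overlapping groups, and the nuclear sum stays between 22245 and 24181 TPM.

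Mean levels per gene over all libraries ordered the mitochondrial genome from MT-ND6, at 1000 TPM, to MT-CO2, at 12400 TPM. MT-CO2 and the other complex IV catalytic subunits, MT-CO1 and MT-CO3, were above every mitochondrial complex I gene. Nuclear complex IV subunits were the most abundant nuclear set, with a median of 689 TPM and a top of 1230 TPM in COX6B1, a subunit facing the intermembrane space. Nuclear complex V members had a median of 299 TPM, complex III 249 TPM, complex I 155 TPM and complex II 120 TPM. NDUFV3, an accessory subunit of the NADH-binding module, was the lowest tested nuclear member apart from the readthrough ATP5MF-PTCD1, at 19 TPM.

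Some members share sequence, and their values are not fully separate. The end of MT-ATP8 overlaps the start of MT-ATP6 on the mitochondrial genome (GRCh38, chrM:8527-8572, plus strand), over 46 bases that a read inside them cannot assign to either gene. These bases are shown because both genes are ATP synthase subunits read from 1 RNA, with the MT-ATP6 start codon in capitals.
MT-ATP8/MT-ATP6 overlap: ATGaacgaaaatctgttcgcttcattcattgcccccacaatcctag
MT-ND4L and MT-ND4 overlap by 7 bases (chrM:10760-10766), and MT-ATP6 and MT-CO3 by 1 base. MT-ND6 is the only member on the other strand of that genome, and whether the authors' quantification used strand is not given in these sources, so sense and antisense RNA at MT-ND6 cannot be told apart. ATP5MF-PTCD1 is a readthrough transcript that shares exons with ATP5MF, so its level is uncertain.

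MT-CO3, a core subunit of cytochrome c oxidase (GRCh38, chrM:9207-9990, plus strand), was lower in LB cells given amiodarone plus HPbCD. It measured 10209, 9899 and 8298 TPM in LB cells with DMSO, 5556, 8897 and 6626 TPM with amiodarone, and 4836, 6326 and 6086 TPM with amiodarone plus HPbCD. A549 cells had 11122, 9669 and 7448 TPM. All 3 libraries with both agents lay below all 3 vehicle libraries, whereas the amiodarone group overlapped each of them. The difference between the combination and DMSO was -0.72 ± 0.18 (SE; limma adjusted p = 0.0138). MT-CO3 was the only one of the 13 mitochondrial genes past the test in any of the 4 comparisons. The call ended without LB DMSO replicate 1 (-0.67, adjusted p = 0.0556), LB DMSO replicate 2 (-0.69, adjusted p = 0.052) or LB amiodarone plus HPbCD replicate 1 (-0.60, adjusted p = 0.0633), and with no filter on low values (adjusted p = 0.0559). With amiodarone alone the difference was -0.45 ± 0.18 (limma adjusted p = 0.143).

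The ATP synthase subunits MT-ATP8 and MT-ATP6, just upstream of MT-CO3, had values of the same direction that did not pass. MT-ATP8 measured 10308, 8804 and 8056 TPM with DMSO and 6007, 7092 and 6714 TPM with the combination (-0.45 ± 0.17, limma adjusted p = 0.0953). MT-ATP6 measured 9271, 8700.0 and 7505 TPM against 5348, 6892 and 6715 TPM (-0.43 ± 0.17, limma adjusted p = 0.0989). Neither pair of groups overlapped. MT-CO1, the oxygen-reducing subunit of complex IV, had a difference of -0.46 ± 0.20 (limma adjusted p = 0.141), and its groups overlapped.

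MT-ND3, a small membrane subunit of complex I, had values in the other direction with amiodarone. Its levels were 3026, 2702 and 2675 TPM with DMSO, 3113, 3478 and 3099 TPM with amiodarone and 3011, 2855 and 2931 TPM with the combination. The amiodarone libraries were above all DMSO libraries, but the difference of 0.21 ± 0.063 did not pass (limma adjusted p = 0.0646). For the other mitochondrial complex I genes, MT-ND1, MT-ND2, MT-ND4, MT-ND4L, MT-ND5 and MT-ND6, and for MT-CYB and MT-CO2, differences in the 3 comparisons among LB groups lay between -0.33 (MT-CYB, combination against DMSO) and 0.016 (MT-ND2, amiodarone against DMSO). None of these passed.

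Because libraries of 1 group differed so widely in the mitochondrial sum, the genes were also expressed relative to each other within a library, as log2 TPM minus the mean log2 TPM of the 13 genes. On this relative scale MT-CO3 stood at 1.04, 1.01 and 1.0 in A549 cells and 1.02, 1.06 and 1.05 in LB cells with DMSO. It stood at 0.66, 0.76 and 0.72 with amiodarone, and at 0.51, 0.58 and 0.63 with the combination. The replicate spread within each group was at most 0.063 (SD), and the 3 LB groups did not overlap. An exact permutation test of 3 against 3 libraries cannot give a two-sided p below 0.1, so no such test is given for these values. The plain ratio of MT-CO3 to its neighbour MT-ATP6 was 1.10 to 1.14 with DMSO, 0.904 to 0.974 with amiodarone and 0.904 to 0.918 with the combination. Its ratio to MT-CO2, another complex IV core subunit, was 0.705 to 0.722, then 0.581 to 0.654, then 0.475 to 0.530.

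MT-ND2, a membrane subunit of complex I, was ordered the other way on the relative scale, and it also separated the lines. It stood at -0.14 to 0.01 in A549 cells and 0.15 to 0.23 in LB cells with DMSO. With amiodarone it stood at 0.25 to 0.37, and with the combination at 0.31 to 0.43, so that only the treated groups overlapped each other. MT-CO1 ran from 1.15 to 1.27 in A549 cells, 1.0 to 1.10 in LB cells with DMSO, 0.75 to 0.93 with amiodarone and 0.74 to 0.95 with the combination. MT-ND3 ran from -0.81 to -0.59 with DMSO and from -0.59 to -0.17 with amiodarone. Other genes also separated DMSO from the combination on this scale. MT-ATP6 (0.87 to 0.90 against 0.65 to 0.77) and MT-ATP8 (0.89 to 1.03 against 0.75 to 0.82) were lower with the combination. MT-ND5 (-1.92 to -1.90 against -1.78 to -1.67), MT-ND1 and MT-ND6 were higher. MT-CO2, MT-CYB, MT-ND4L and MT-ND4 overlapped or touched. Relative values are tied together, since a fall in one gene raises the others.

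**Figure D2:**
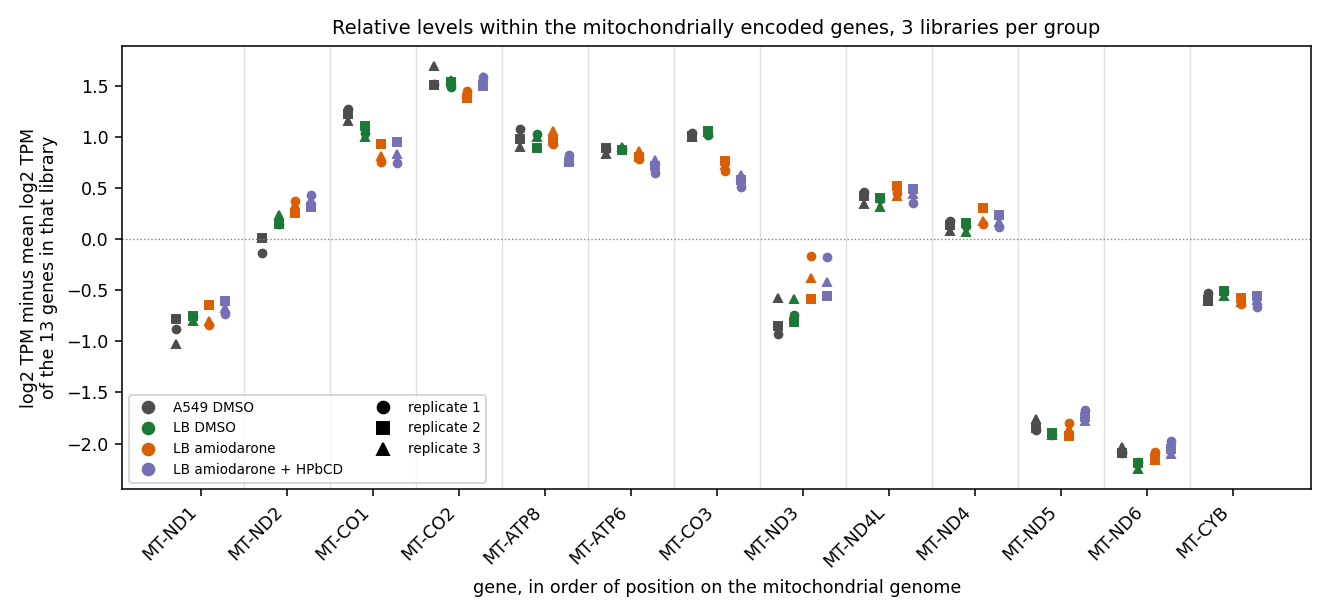
Log2 TPM of each mitochondrially encoded gene minus the mean of the 13 genes in the same library (vertical axis, log2 units), with genes in genome order on the horizontal axis and 1 point per library. MT-CO3 sits at 1.0 to 1.06 in the vehicle groups, 0.66 to 0.76 with amiodarone and 0.51 to 0.63 with amiodarone plus HPbCD, and MT-ND2 rises from -0.14 to 0.01 in A549 cells to 0.31 to 0.43 with both agents.

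The same shifts were also expressed as differences in a limma model with the log2 summed mitochondrial level of each library as a covariate. That alternative was chosen after the relative values had been seen, and the sum contains the gene itself, so its values are a description and are given with no test. For MT-CO3 it gave -0.26 ± 0.026 (SE) for amiodarone against DMSO, -0.11 ± 0.026 for the combination against amiodarone and -0.37 ± 0.029 for the combination against DMSO. For MT-CO1 the same differences were -0.12 ± 0.033, 0.069 ± 0.033 and -0.052 ± 0.036. MT-ND3, MT-ND4L, MT-ND4 and MT-ND2 stood at 0.25, 0.18, 0.17 and 0.14 for amiodarone against DMSO. Between the lines, MT-ND2 and MT-ND1 stood at 0.22 and 0.14 in LB cells, and MT-CO1 and MT-ND6 at -0.15 and -0.13. The comparisons among LB groups share libraries and are not separate evidence.

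LB cells differed from A549 cells in 19 nuclear members, of which 13 were higher and 6 lower. Of all genes tested, 14.2% rose and 18.2% fell in this comparison, against 14.1% and 6.52% of the 92 members. The share that rose was thus near the background and is not a result about the chain. The median difference of the 79 nuclear members was 0.056, beside -0.04 for all genes tested. Differences were small, and the largest of a nuclear member in any comparison was that of COX7A2, 1.39-fold. The count was 12 without A549 replicate 1 and 11 without LB DMSO replicate 2. Over all genes tested, 1979 higher and 2546 lower became 1805 and 2300, and 1631 and 2030, in these fits. The balance of directions moved with the scaling: 18 members were higher and 3 lower after median-of-ratios scaling, and 22 higher and 7 lower after quantile normalization. The balance over all genes tested moved too, to 2290 higher and 2165 lower, and to 2373 and 2184. These shifts are thus not particular to the chain.

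The largest rise was in a complex IV subunit, and 2 others of that complex rose. COX7A2, the broadly expressed isoform of a small membrane-spanning subunit, measured 303, 312 and 372 TPM in A549 cells and 438, 460.4 and 469 TPM in LB cells. It measured 448.5 to 509 TPM in both drug groups, so every LB library exceeded every A549 library. The difference between the lines was 0.48 ± 0.071 (limma adjusted p = 0.000256). COX7C, a neighbouring small subunit, rose from 807 ± 28.2 to 998 ± 23.8 TPM (0.31 ± 0.046, limma adjusted p = 0.000258). COX6C rose from 372 ± 10.9 to 449 ± 26.6 TPM (0.27 ± 0.046, limma adjusted p = 0.000689). In contrast COX4I1, the largest nuclear subunit of the enzyme, stood at 780 ± 31.6 and 785 ± 11.7 TPM and passed in no comparison (lowest limma adjusted p = 0.368).

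Complex II moved in both directions. SDHA, the flavoprotein that oxidizes succinate, measured 127, 129 and 131 TPM in A549 cells and 103, 107 and 111 TPM in LB cells. The lines did not overlap, and the difference was -0.27 ± 0.047 (limma adjusted p = 0.000895). SDHC, which helps anchor the enzyme in the membrane, rose from 219 ± 9.97 to 248 ± 5.74 TPM (0.18 ± 0.046, limma adjusted p = 0.011). SDHB, the iron-sulfur subunit that binds SDHA, measured 130.0 ± 5.89 and 139.6 ± 7.06 TPM (limma adjusted p = 0.168). Subunits of 1 complex therefore did not change in step between the lines.

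In complex I, NDUFA8, an accessory subunit on the intermembrane space side, measured 104, 104 and 108 TPM in A549 cells and 128, 135 and 129 TPM in LB cells (0.31 ± 0.047, limma adjusted p = 0.00029). NDUFB4, of the membrane arm, rose from 315 ± 27.1 to 373 ± 25.7 TPM (0.24 ± 0.062, limma adjusted p = 0.00958). NDUFB1, also of the membrane arm, fell from 363 ± 20.6 to 318 ± 10.9 TPM (-0.19 ± 0.048, limma adjusted p = 0.00981). NDUFB2 rose by 0.11, and NDUFB3 and the iron-sulfur subunit NDUFS8 fell by 0.21 and 0.16. The NDUFB2 call was lost without A549 replicate 1 or LB DMSO replicate 2 or 3 (up to 0.0902 in limma adjusted p). NDUFS8 was lost without the same libraries or A549 replicate 3 (up to 0.115). NDUFB3 was lost for 8 of 12 libraries, all but A549 replicate 2, LB DMSO replicate 3 and LB amiodarone plus HPbCD replicates 2 and 3 (up to 0.184).

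In complex III, UQCRC1, a core protein on the matrix side, fell from 215, 214 and 212 TPM to 173, 183 and 195 TPM (-0.22 ± 0.064, limma adjusted p = 0.0196). That call was lost without A549 replicate 1 or LB DMSO replicate 1 or 2 (limma adjusted p = 0.0508 to 0.0827). UQCRB, a subunit near the quinone site, rose by 0.17 (limma adjusted p = 0.00717). CYC1, the cytochrome c1 heme subunit, rose by 0.16 (limma adjusted p = 0.0199), a call lost without A549 replicate 1 or LB DMSO replicate 2 or 3 (limma adjusted p = 0.0599 to 0.0813). UQCR11 rose by 0.16, with its call lost for 8 of 12 libraries, all but A549 replicate 3, LB amiodarone replicates 1 and 3 and LB amiodarone plus HPbCD replicate 1 (highest limma adjusted p = 0.148). In complex V, ATP5F1D, the delta subunit of the central stalk, rose from 106, 104 and 109 TPM to 119, 121 and 121 TPM (0.18 ± 0.045, limma adjusted p = 0.0103). ATP5MC3, one of 3 genes for the identical c-ring protein, rose by 0.15 and ATP5F1C, the gamma subunit, fell by 0.17, with limma adjusted p-values of 0.0323 and 0.0312. The ATP5MC3 call was lost without A549 replicate 1 or 2 or LB DMSO replicate 2 or 3 (up to 0.0991), and the ATP5F1C call without A549 replicate 2 or 3 or any LB DMSO library (up to 0.103). The readthrough ATP5MF-PTCD1 was 11 ± 0.43 against 13.8 ± 1.21 TPM (0.31), and its partner ATP5MF passed in no comparison.

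**Figure D3:**
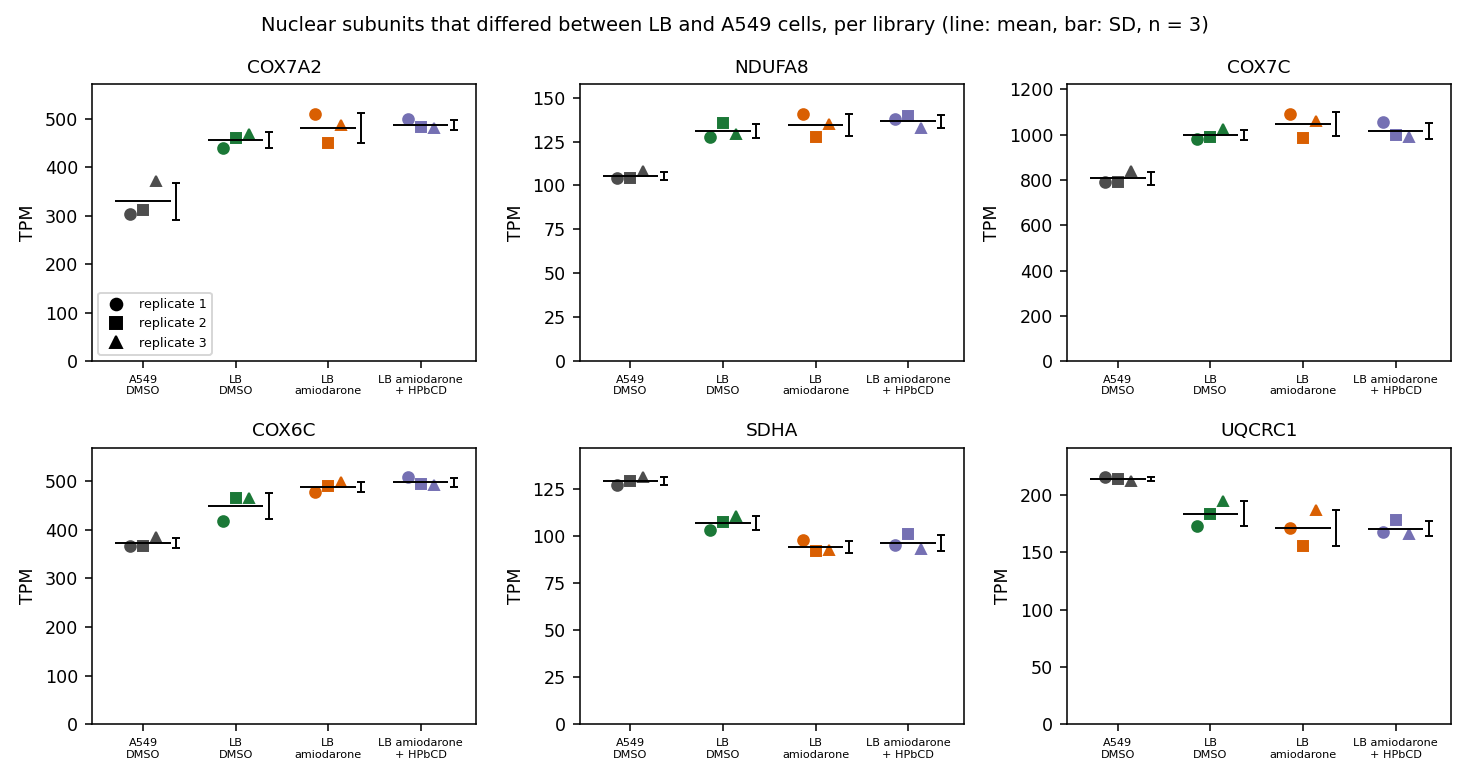
TPM (vertical axes, from 0) of 6 nuclear subunits in all 12 libraries; lines are group means and bars SD over 3 replicates. COX7A2, NDUFA8, COX7C and COX6C are higher in every LB DMSO library than in every A549 library, and SDHA and UQCRC1 are lower.

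Markers of other cell identities also differed between the lines. All 6 epithelial markers fell in LB cells, with summed levels of 9620 to 10300 TPM in A549 cells and 4680 to 5230 TPM in LB cells with DMSO. Summed fibroblast markers were 3.8 to 6.43 TPM and 11.3 to 11.8 TPM, and the 2 of 7 that were tested (LUM and COL1A1) both rose. Summed leukocyte markers were 7.05 to 7.22 TPM and 3.41 to 5.32 TPM, with CD3E listed at 0 throughout. Their part in the differences between the lines was not tested.

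The promoters of nuclear members are shown for 3 genes picked by hand among the called members, as the 250 bases upstream of the RefSeq start (GRCh38.p14). Capitals mark matches to GCGCANGCG, searched on both strands as the core of the site for NRF1, a transcription factor known to act on many respiratory genes. SDHA lies at chr5:218070-218319 (plus strand), NDUFB4 at chr3:120596086-120596335 (plus strand) and NDUFV1 at chr11:67606686-67606935 (plus strand).
SDHA: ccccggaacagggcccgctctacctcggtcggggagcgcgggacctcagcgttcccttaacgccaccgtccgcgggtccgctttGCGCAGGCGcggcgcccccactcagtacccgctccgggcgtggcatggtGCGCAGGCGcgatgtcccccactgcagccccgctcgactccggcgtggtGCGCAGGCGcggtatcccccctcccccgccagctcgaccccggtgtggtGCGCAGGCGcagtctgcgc
NDUFB4: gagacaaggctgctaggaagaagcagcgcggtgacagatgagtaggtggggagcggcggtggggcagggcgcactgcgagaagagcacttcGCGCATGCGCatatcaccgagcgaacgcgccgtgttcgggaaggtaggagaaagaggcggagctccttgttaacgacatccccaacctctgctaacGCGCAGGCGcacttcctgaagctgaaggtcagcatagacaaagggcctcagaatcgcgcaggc
NDUFV1: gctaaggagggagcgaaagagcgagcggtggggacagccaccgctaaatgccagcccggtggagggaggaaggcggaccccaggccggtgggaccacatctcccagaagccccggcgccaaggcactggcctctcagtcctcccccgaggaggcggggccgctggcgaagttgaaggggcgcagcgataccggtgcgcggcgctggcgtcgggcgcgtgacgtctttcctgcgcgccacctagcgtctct
These stretches hold 4, 3 and 0 matches. In NDUFB4 the first marked run matches on both strands, 1 base apart, so its matches are not all separate sites. SDHA, which fell in LB cells, and NDUFB4, which rose, both carry more than 1 marked run. Among 64 of 80 nuclear members matched to RefSeq promoter windows of 300 bases, 34.4% had the NRF1 word in at least 1 window, beside 9.02% of all 27305 genes in the table. The ETS word CCGGAAG was in 32.8% of the members and 12.2% of all genes, and the YY1 word AAGATGGCG in 14.1% and 2.14%. The 3 words do not contain one another, and a match is only a match of letters. The transcript of NRF1 itself fell from 11.2 ± 0.934 to 8.78 ± 0.376 TPM in LB cells (-0.32 ± 0.09, limma adjusted p = 0.0173), a call lost without A549 replicate 3 or LB DMSO replicate 2 (highest limma adjusted p = 0.0649). No other of the 10 tested regulators, among them GABPA, ESRRA and YY1, passed between the lines.

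With amiodarone 6 nuclear members fell and none rose past the test. In this comparison 3.72% of all genes tested fell and 4.9% rose, against 6.52% and 0% of the members. The median of the 79 nuclear members was -0.031, beside -0.0027 for all genes tested. The 6 falls became 1 (beside 2 rises) on leaving out LB DMSO replicate 2, and 2 without LB DMSO replicate 3. They became 1 (beside 1 rise) on leaving out LB amiodarone replicate 2, and 1 without LB amiodarone replicate 3. Falls over all genes tested dropped too, from 520 to 271, 201, 222 and 294 in the same order. Rises were called under some other settings, among them 3 with the filter at a mean of 5 TPM (beside 6 falls), 3 with array weights (beside 7), 2 among protein-coding genes only (beside 6), and 1 each after quantile normalization or removal of the mitochondrially encoded genes (beside 6). NDUFA6, an accessory subunit of complex I named after its values were seen, lay just outside the threshold, at 93.2 ± 6.23 TPM with DMSO and 107 ± 3.73 TPM with amiodarone (0.20 ± 0.059, limma adjusted p = 0.0512). It was past the test in some alternatives and not in 17 of 26. Of the 6 falls, only that of ATP5F1D was called under each of the 26 alternative settings.

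Summed epithelial markers were 4680 to 5230 TPM with DMSO and 4390 to 4880 TPM with amiodarone, with KRT19 rising among the 6 tested. Summed fibroblast markers were 11.3 to 11.8 and 10.8 to 16.2 TPM, with LUM rising among the 2 tested (limma adjusted p = 0.0483, or up to 0.167 on leaving out 1 library). Summed leukocyte markers were 3.41 to 5.32 and 1.72 to 3.5 TPM, with none of 2 tested past the threshold and CD3E at 0. Their part in the result was not tested.

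ATP5F1D, which couples the rotating stalk of ATP synthase to its membrane ring, measured 119, 121 and 121 TPM with DMSO and 98.9, 93.5 and 96.4 TPM with amiodarone. It measured 96.5, 106 and 99.7 TPM with the combination. Every treated library was below every vehicle library, and the amiodarone values were also below the A549 values of 104 to 109 TPM. The differences from DMSO were -0.32 ± 0.045 with amiodarone (limma adjusted p = 0.00109) and -0.25 ± 0.045 with the combination (limma adjusted p = 0.00224). Adding HPbCD changed it by 0.064 ± 0.045, which did not pass (limma adjusted p = 0.514).

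The peripheral arm of complex I, where NADH is oxidized, held 3 of the remaining calls. NDUFV1, the flavin-bearing subunit that accepts electrons from NADH, measured 213, 199.8 and 191 TPM with DMSO, 167, 173 and 166 TPM with amiodarone, and 159.8, 171 and 158 TPM with the combination. NDUFS8, which carries a pair of iron-sulfur clusters, measured 246, 243 and 229 TPM, then 217, 213 and 201 TPM, then 189, 209 and 194 TPM. For both genes, every treated library was below every DMSO library. NDUFA9, at the junction of the arms, fell from 138, 139 and 133 TPM to 119, 119 and 111 TPM with amiodarone but stood at 126, 127 and 139 TPM with the combination, which overlapped DMSO.

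Against DMSO, amiodarone gave -0.25 ± 0.071 for NDUFV1 (limma adjusted p = 0.0453), -0.19 ± 0.05 for NDUFS8 (limma adjusted p = 0.0376) and -0.23 ± 0.061 for NDUFA9 (limma adjusted p = 0.0395). The NDUFV1 call was lost on leaving out any 1 of the 9 LB libraries (limma adjusted p = 0.0554 to 0.157). NDUFA9 was lost without any 1 of 8 of them, LB amiodarone plus HPbCD replicate 3 being the exception (limma adjusted p = 0.0503 to 0.132). NDUFS8 was lost without LB DMSO replicate 1 or 2, any amiodarone library, or LB amiodarone plus HPbCD replicate 3 (limma adjusted p = 0.0511 to 0.129). Among the nuclear core subunits of complex I, NDUFV1 and NDUFS8 fell. NDUFS1, NDUFS3, NDUFS7 and NDUFV2 passed in no comparison, with lowest limma adjusted p-values of 0.507, 0.073, 0.199 and 0.342.

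CYC1 and SDHA, which were also different between the lines, made up the rest. CYC1 measured 367, 387 and 399 TPM with DMSO and 349, 319.6 and 341 TPM with amiodarone (-0.19 ± 0.047, limma adjusted p = 0.0287), values that overlapped the 332 to 352 TPM of A549 cells. SDHA measured 103, 107 and 111 TPM and then 97.6, 92 and 92.5 TPM (-0.18 ± 0.047, limma adjusted p = 0.0338), further below A549 cells. Both calls were lost without LB DMSO replicate 2 or 3 or LB amiodarone replicate 2 or 3 (limma adjusted p = 0.062 to 0.112 for CYC1 and 0.0886 to 0.122 for SDHA). No nuclear complex IV member passed. COX5A, a subunit on the matrix side, had a difference of 0.17 ± 0.049 (limma adjusted p = 0.0538).

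HPbCD added to amiodarone changed no member past the test. At an unadjusted limma p under 0.05 there were 7 of 92 members, beside 2508 of all 13968 genes tested. Of all genes tested, 2.71% rose and 1.36% fell. The median of the 79 nuclear members was 0.0059, beside -0.0081 for all genes tested. The smallest adjusted p was that of ATP5MC2, another c-ring gene, at 530.2, 509 and 505 TPM with amiodarone and 456, 477 and 467 TPM with the combination (-0.14 ± 0.042, limma adjusted p = 0.094). NDUFA9 moved the other way (0.16 ± 0.061, limma adjusted p = 0.177). For NDUFV1 the difference was -0.050 ± 0.071, for NDUFS8 -0.091 ± 0.05, for CYC1 0.042 ± 0.047 and for SDHA 0.035 ± 0.047. Values of this size do not show that HPbCD left the genes at their amiodarone levels.

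The combination against DMSO gave 14 calls, 12 lower (11 nuclear genes and MT-CO3) and 2 higher. Of all genes tested, 7.81% fell and 10.1% rose, against 13% and 2.17% of the members. This comparison shares the DMSO libraries with the amiodarone comparison, so the calls of NDUFV1, NDUFS8, ATP5F1D, CYC1 and SDHA in both are not separate evidence. The count was 6, 9 and 9 on leaving out LB DMSO replicates 1, 2 and 3 in turn, and 6, 9 and 7 without LB amiodarone plus HPbCD replicates 1, 2 and 3. Over all genes tested, 1091 falls became 671, 790 and 706, then 672, 841 and 718. The 1404 rises became 1030 to 1146. The member count was 9 after median-of-ratios scaling (2 higher and 7 lower) and 17, all lower, after quantile normalization. All genes tested then gave 1546 higher and 948 lower, and 1371 and 1367. Summed epithelial markers were 4680 to 5230 TPM with DMSO and 4160 to 4660 TPM with the combination. Of the 6 tested, KRT19 rose and CDH1 and KRT18 fell. Summed fibroblast markers were 11.3 to 11.8 and 6.56 to 7.43 TPM, with COL1A1 falling among the 2 tested. Summed leukocyte markers were 3.41 to 5.32 and 1.69 to 2.47 TPM, with CD14 falling among the 2 tested. Their part in the result was not tested.

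NDUFV1 fell by 0.30 on the log2 scale (limma adjusted p = 0.0108, or 0.0509 without LB DMSO replicate 1) and NDUFS8 by 0.28 (limma adjusted p = 0.00216). ATP5MC2 fell from 547, 550.1 and 555 TPM to 456, 477 and 467 TPM (-0.24 ± 0.042, limma adjusted p = 0.00213), with the amiodarone libraries in between. NDUFB11, of the membrane arm of complex I, fell from 163 ± 4.12 to 143 ± 2.8 TPM (-0.19 ± 0.042, limma adjusted p = 0.00892). NDUFB9, also of that arm, fell from 294 ± 3.6 to 261 ± 4.04 TPM (-0.17 ± 0.04, limma adjusted p = 0.0106). The calls of NDUFS8, ATP5MC2, NDUFB11, NDUFB9 and ATP5F1D remained on leaving out each library in turn.

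The other falls were less stable. NDUFC1 (-0.19), NDUFB10 (-0.13) and ATP5F1A, the catalytic-head alpha subunit (-0.14), lost their calls without any 1 DMSO or combination library, with limma adjusted p-values of up to 0.129, 0.121 and 0.127, and NDUFC1 also without LB amiodarone replicate 2 or 3. CYC1 (-0.15) lost its call for 8 of 12 libraries, all but A549 replicate 2, LB DMSO replicate 1 and LB amiodarone replicates 1 and 2 (up to 0.162 in limma adjusted p). SDHA (-0.15) lost its call for 10 of 12 libraries, all but A549 replicate 2 and LB amiodarone plus HPbCD replicate 2 (up to 0.162).

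The 2 rises were both in complex IV. COX5A measured 476, 524 and 492 TPM with DMSO, 554, 541 and 585 TPM with amiodarone and 585, 539.8 and 593 TPM with the combination. All treated libraries exceeded all vehicle libraries, and the difference for the combination was 0.20 ± 0.049 (limma adjusted p = 0.0138). It was lost without LB DMSO replicate 1 or LB amiodarone plus HPbCD replicate 1 or 3 (limma adjusted p = 0.0576 to 0.063). COX6C measured 418, 464 and 464 TPM, then 476, 489 and 497 TPM, then 507, 493 and 491 TPM, with 0.15 ± 0.046 for the combination (limma adjusted p = 0.0412). It was lost without LB DMSO replicate 1, LB amiodarone replicate 2 or 3, or any combination library (limma adjusted p = 0.0511 to 0.158). MT-CO3 of the same complex was thus lower while these nuclear subunits were higher, and the difference between those directions was not tested.

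**Figure D4:**
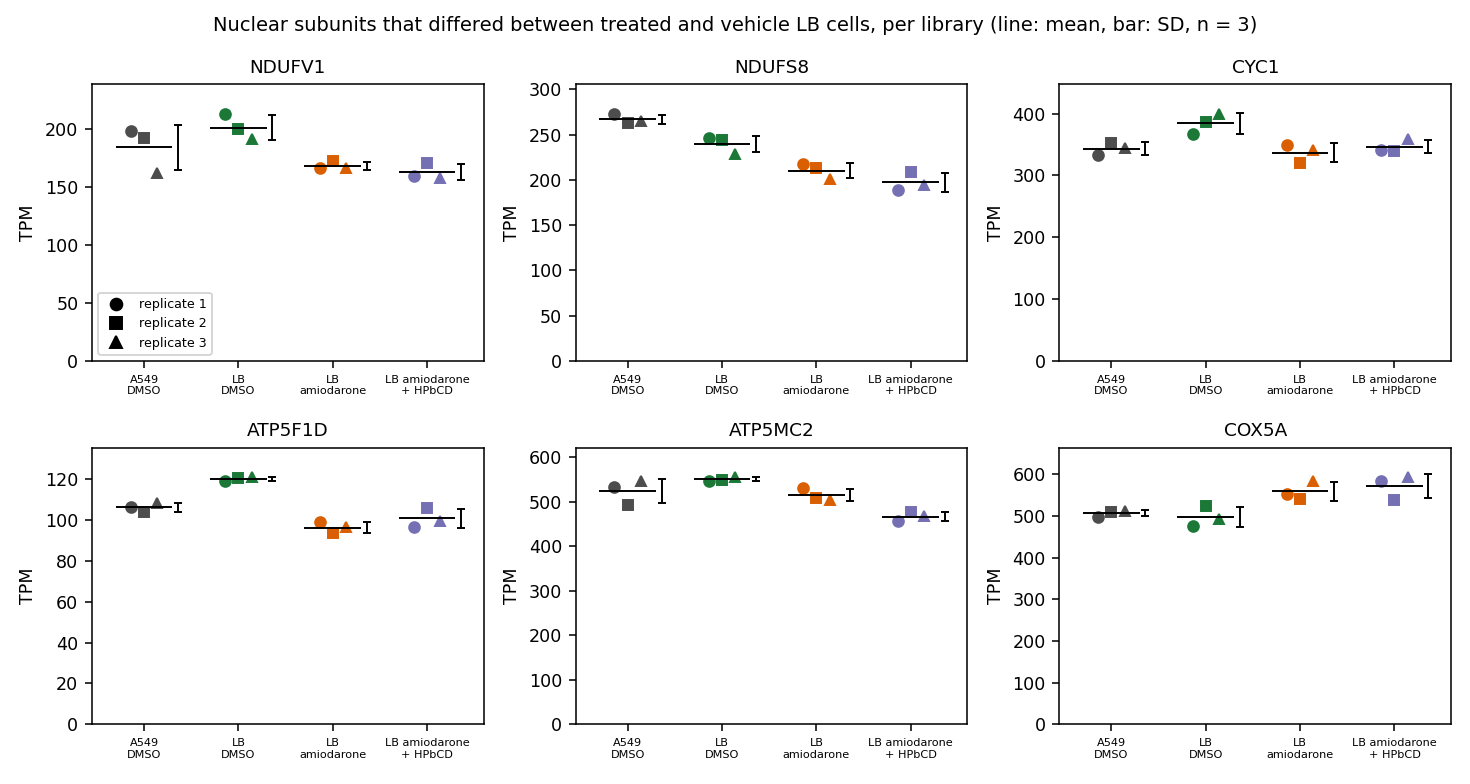
TPM (vertical axes, from 0) of 6 nuclear subunits in all 12 libraries; lines are group means and bars SD over 3 replicates. NDUFV1, NDUFS8 and ATP5F1D are lower in every treated LB library than in every LB DMSO library, ATP5MC2 is lowest at 456 to 477 TPM with amiodarone plus HPbCD, and COX5A is higher in the treated groups.

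Over the 4 comparisons, 28 nuclear members (35.4%) passed at least once and 51 never did, beside 43.1% of all genes tested that passed at least once. UQCRFS1, the Rieske iron-sulfur protein, stayed between 115 and 131 TPM, ATP5IF1, the inhibitor of ATP synthase, between 126 and 150.0 TPM, and ATP5F1B, the catalytic beta subunit, between 802 and 912 TPM. Their lowest limma adjusted p-values over the comparisons were 0.328, 0.661 and 0.284. The plot of differences by complex shows both sets. Between the lines the nuclear differences ran from -0.27 to 0.48 and the mitochondrial ones from -0.17 to 0.21, and for the combination against DMSO they ran from -0.30 to 0.20 and from -0.72 to 0.068.

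**Figure D5:**
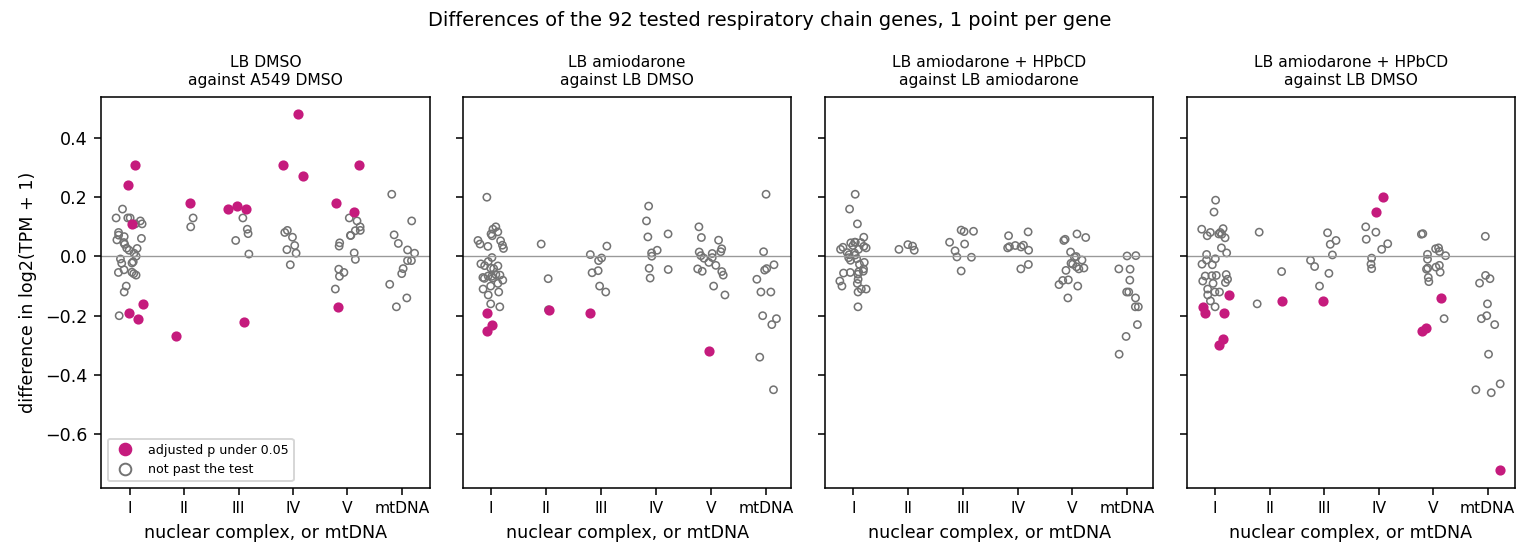
Difference in log2(TPM + 1) (vertical axis) of the 92 tested genes in 4 comparisons (panels), split on the horizontal axis into nuclear complexes I to V and the mitochondrially encoded genes (mtDNA), with filled points at an adjusted p under 0.05; horizontal scatter within a column is only for legibility. Filled points lie on both sides of 0 between the lines, below 0 with amiodarone, nowhere when HPbCD is added to amiodarone, and mostly below 0 for the combination against DMSO, where MT-CO3 lies lowest at -0.72.

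Genes that build or serve the chain were counted in lists chosen from textbook knowledge, to be read beside the 4.9% of all genes tested that rose and the 3.72% that fell with amiodarone. Of 16 complex I assembly factors, amiodarone raised TMEM126B, a membrane-arm factor (0.38, limma adjusted p = 0.00997), and lowered NDUFAF8 (-0.35, limma adjusted p = 0.0145) and ACAD9 (-0.22, limma adjusted p = 0.0491). The NDUFAF8 call was lost without LB DMSO replicate 2 or 3 or LB amiodarone replicate 1 or 2 (up to 0.06), and ACAD9 on leaving out any 1 of 9 libraries, all but A549 replicates 2 and 3 and LB amiodarone plus HPbCD replicate 1 (up to 0.148). Of 10 complex II and III factors it lowered BCS1L, which inserts the Rieske protein, from 34.1 ± 2.75 to 25.2 ± 0.666 TPM (-0.42, limma adjusted p = 0.00376), and UQCC1 (-0.26, limma adjusted p = 0.0211, or up to 0.0771 on leaving out LB DMSO replicate 1 or 2 or LB amiodarone replicate 2 or 3). Of 21 complex IV factors none passed with amiodarone. At an unadjusted limma p under 0.05 there were 3 of them, beside 3227 of all 13968 genes tested. COX7A2L, which links complexes III and IV, rose from 123 ± 2.58 to 147 ± 8.08 TPM (0.25, limma adjusted p = 0.0147), a call lost without LB DMSO replicate 2 or 3 or LB amiodarone replicate 3 (up to 0.0605). Between the lines, COA6, a copper-handling complex IV factor, rose from 83.8 ± 4 to 142 ± 3.53 TPM (0.75, limma adjusted p = 1.7e-06).

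Among 18 genes of electron carriers and coenzyme Q synthesis, 5 fell and 2 rose with the combination against DMSO, where 7.81% of all genes tested fell and 10.1% rose. COQ8A, a kinase-like protein of coenzyme Q synthesis, fell from 13.8 ± 0.0907 to 9.21 ± 0.17 TPM with amiodarone (-0.54, limma adjusted p = 0.000889) and stood at 9.72 ± 0.551 TPM with the combination. COQ8B fell from 50.1 ± 1.35 to 37 ± 2.38 TPM with the combination (-0.43, limma adjusted p = 0.000938). DHODH, which feeds electrons from pyrimidine synthesis into coenzyme Q, measured 13.3 ± 1.51 and 8.83 ± 0.292 TPM (-0.54, limma adjusted p = 0.0129, or 0.058 without LB DMSO replicate 1). SQOR, the sulfide oxidase that also reduces coenzyme Q, rose from 53.6 ± 1.44 TPM with amiodarone to 84.8 ± 0.762 TPM when HPbCD was added (0.65 ± 0.045, limma adjusted p = 8.8e-06), and it held on leaving out each library.

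Mitochondrial RNA processing is the step that cuts the polycistronic RNA and sets the stability of its products. Of 17 tested genes of that list, 3 fell with amiodarone, beside 3.72% of all genes tested: ELAC2, which cuts at tRNA ends (-0.29, limma adjusted p = 0.036), TBRG4, a FASTK-family protein (-0.24, limma adjusted p = 0.017), and HSD17B10, a part of mitochondrial RNase P (-0.15, limma adjusted p = 0.0395). TBRG4 was lost without LB DMSO replicate 1 or 3 or LB amiodarone replicate 1 or 2 (up to 0.0721). ELAC2 was lost without any DMSO or amiodarone library of LB cells or LB amiodarone plus HPbCD replicate 3 (up to 0.127), and HSD17B10 without those or LB amiodarone plus HPbCD replicate 1 (up to 0.142). Of 16 genes of mitochondrial DNA replication and transcription, only POLRMT, the mitochondrial RNA polymerase, passed with amiodarone, from 49.2 ± 3.62 to 38.6 ± 2.23 TPM (-0.34, limma adjusted p = 0.0368, or up to 0.13 without LB DMSO replicate 1 or 3, any amiodarone library or LB amiodarone plus HPbCD replicate 3). With the combination against DMSO, 4 of the 17 tested RNA processing genes fell (REXO2, FASTK, TBRG4 and HSD17B10) and 1 rose (LRPPRC). Of all genes tested, 7.81% fell and 10.1% rose in that comparison. REXO2, an exonuclease that degrades short RNAs, fell from 124 ± 8.45 to 96.5 ± 0.956 TPM (-0.36, limma adjusted p = 0.00249). ESRRA, a nuclear receptor acting on respiratory genes, rose with the combination from 47 ± 1.53 to 56.7 ± 2.1 TPM (0.27, limma adjusted p = 0.00722). Of 13 tricarboxylic acid cycle genes, 1 fell with amiodarone (IDH3G, -0.27, limma adjusted p = 0.0159, or up to 0.0646 without LB DMSO replicate 1 or 2 or LB amiodarone replicate 2), while with the combination IDH3G and CS fell and OGDH rose, of which CS was lost without LB DMSO replicate 1 or 3 or LB amiodarone plus HPbCD replicate 1 or 3 (up to 0.0873 in limma adjusted p).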

How the data were processed

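Poly(A) RNA libraries were made with a stranded mRNA kit and sequenced as 100-bp paired reads, per the labels' protocols. The authors deposited 1 table of TPM for 12 libraries, and the submitters' processing notes name STAR 2.7.3a, RSEM 1.3.1 and GRCh38; gene coordinates are those of GENCODE 29. Every value column matched 1 sample, leaving 0 unmatched, and 37 of 57189 rows had no values. The members and lists were chosen with earlier results of these data known. Members were picked by symbol; 45 pseudogenes among 138 matching symbols were left out, while MT-ATP6 and MT-ATP8, whose names resemble pseudogene symbols, were kept.

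Genes averaging 1 TPM or more were fitted as log2(TPM + 1) with limma 3.58.1 (R 4.3.3), with an intensity trend and all 4 groups in 1 model. Benjamini-Hochberg adjustment was done per comparison. The procedure was tested on simulated data. Named genes were the 13 mitochondrially encoded members and 17 subunits listed whatever their values, of which 1 is not reported here. Up to 4 called members per complex and direction, and up to 3 called genes per list and direction, were added by size of difference. NDUFB9, NDUFB10 and NDUFA6 fall outside this rule and were named after their values were seen. Alternatives changed the pseudocount, filter, scaling, limma options, samples and replicate block, and left out each library. Promoter sequences are RefSeq's, on GRCh38.p14, and the mitochondrial overlap was read from the GENCODE 29 transcripts.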

Additional observations from a re-analysis of the deposited data

How the results depend on the processing

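Of the results for single genes under 26 alternatives, 10451 kept their side of the threshold, 418 fell below it, 95 passed it anew and 8 reversed. Direction was compared only for results past the test in the main fit or in the alternative. The 10451 can thus include changes of direction in results that passed in neither. All 8 reversals arose with the summed mitochondrially encoded level as a covariate, which was chosen after seeing the data and measures each gene relative to that sum. The sum contains these genes themselves, so the reversals are a description and no test. For the combination against DMSO they were MT-ND1 (0.257), MT-ND2 (0.173), MT-ND4 (0.184), MT-ND4L (0.186), MT-ND5 (0.18) and MT-ND6 (0.198), and for amiodarone against DMSO MT-ND4 (0.17) and MT-ND4L (0.179). Member counts moved as follows, and the cause was not tested. For LB against A549 cells (19 members), quantile normalization gave 29, limma without trend 12, the covariate 29 and leaving out 1 library 11 to 20. For amiodarone against DMSO (6), no filter gave 2, no trend 1, array weights 10, only the 2 groups compared 3, the covariate 13 and leaving out 1 library 1 to 7. For HPbCD added to amiodarone (0), quantile normalization gave 4, removing mitochondrially encoded genes 1, array weights 1, the covariate 2 and leaving out 1 library 0 to 1. For the combination against DMSO (14), no filter gave 7, median-of-ratios scaling 9, no trend 8 and leaving out 1 library 6 to 16. Summed levels, over the nuclear and the mitochondrially encoded members together as cases, moved by more than 1 SD in 4 of 16 cases. With the replicate number as a block, the counts were 19, 6, 0 and 12, of which 18, 5, 0 and 12 were also called without it. Same-numbered libraries correlated at -0.0649 to 0.212 over 18 pairs, 2 of them over 0.1. For 8 of 12 libraries, the mean correlation with libraries of other groups was highest for their own number. Whether the numbers pair the samples is not settled by these values, and the main fit did not use them. Depth is unknown from TPM, and 3 libraries per group limit the precision.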

Other observations

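Rows outside the chosen genes gave further values. The mitochondrial ribosomal RNAs MT-RNR1 and MT-RNR2 and the mitochondrial tRNAs were listed at 0 in every library. Of the 45 pseudogenes left out, 3 had a mean of at least 1 TPM: ATP5PDP4 (18.2 TPM), ATP5F1CP1 (8.05 TPM) and ATP5MC1P4 (2.09 TPM). Reads from such copies and their parent genes can be hard to separate, so levels of ATP5PD, ATP5F1C and ATP5MC1 are uncertain to that extent.

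Of 10 listed carriers that serve ATP synthase, 1 rose in LB cells against A549 cells (VDAC2) and 2 fell (VDAC3 and SLC25A5). Of all genes tested, 14.2% rose and 18.2% fell. VDAC2, a channel of the outer membrane, rose from 245 ± 7.69 to 290 ± 5.1 TPM (0.24, limma adjusted p = 0.000422). VDAC3 fell from 226 ± 10.4 to 187 ± 7.53 TPM (-0.27, limma adjusted p = 0.00239). COQ2, which attaches the side chain of coenzyme Q, fell from 24.2 ± 0.677 to 16.4 ± 0.601 TPM (-0.54, limma adjusted p = 6.66e-05). REXO2 rose from 86.4 ± 5.57 to 124 ± 8.45 TPM (0.52, limma adjusted p = 7.04e-05), opposite to its fall with the combination, a comparison that shares the LB DMSO libraries.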
